A study of Mus musculus with 2 samples.

Results

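Genes of cholesterol and fatty acid synthesis were examined in cells labelled as ILCregs (regulatory innate lymphoid cells), which had been sorted from the small intestine of 8-week-old mice. The set lists 38 genes, chosen from the pathway by name: enzymes of sterol synthesis, enzymes of fatty acid synthesis, genes of sterol esterification and efflux, and regulators. It covers sterol uptake with no gene of its own. A value was available for 28 of the 38, among 28282 named genes on the arrays. These were the genes with a feature (transcript cluster) that carried exactly 1 distinct gene symbol in the platform annotation. Of the other 10, Acat2, Soat1, Soat2, Nr1h2, Scd1, Scd2, Fads1 and Fads2 were not analysed here, and the features of Msmo1 and Srebf1 carried several symbols.

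All cells came from mice labelled IL-10-GFP knockin, which report the cytokine interleukin 10 by green fluorescent protein, on the C57BL/6 strain. The series holds 1 group of 2 Affymetrix whole-transcript arrays, replicate 1 and replicate 2, from sorted cells with a stated purity over 95%. The labels do not tie either array to its own animals or sort, so their spread may be only technical. There was no other population or treatment, so no test between groups could be made and no p-value is given.

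Cells obtain cholesterol by making it from acetyl-CoA through mevalonate or by taking up lipoproteins. When sterols in the endoplasmic reticulum run low, the carrier SCAP brings the transcription factors SREBP to the Golgi, where they are cut and released to activate genes of sterol and fatty acid synthesis. INSIG proteins hold SCAP back when sterols are plentiful. The liver X receptors (LXR) sense oxysterols and activate export genes such as Abca1. In lymphocytes these pathways supply membrane for growth, and in the gut wall they also serve the absorptive epithelium.

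Hmgcs1 and Insig1 belong to the sterol feedback circuit, and Ggps1 and Elovl5 differed most between the arrays. The start regions of these 4 members are shown, as those of genes on which the results turn. Each runs from 250 bases before to 50 bases after a RefSeq start site (GRCm38.p6), 5′ to 3′ on the gene's own strand. Capitals mark the sterol regulatory element TCACNCCAC, the E-box CACGTG and the CCAAT box, each searched on both strands. A CCAAT box on the other strand thus reads ATTGG. Of these motifs, the region of Ggps1 holds only the CCAAT box.
Hmgcs1 (chr13:119690101-119690400, plus strand): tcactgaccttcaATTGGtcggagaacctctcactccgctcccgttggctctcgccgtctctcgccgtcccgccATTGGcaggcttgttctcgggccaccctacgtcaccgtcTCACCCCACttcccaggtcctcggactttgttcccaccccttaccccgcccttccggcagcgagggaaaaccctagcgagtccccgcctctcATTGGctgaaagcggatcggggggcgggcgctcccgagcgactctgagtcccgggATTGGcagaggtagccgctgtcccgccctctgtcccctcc
Insig1 (chr5:28071162-28071461, plus strand): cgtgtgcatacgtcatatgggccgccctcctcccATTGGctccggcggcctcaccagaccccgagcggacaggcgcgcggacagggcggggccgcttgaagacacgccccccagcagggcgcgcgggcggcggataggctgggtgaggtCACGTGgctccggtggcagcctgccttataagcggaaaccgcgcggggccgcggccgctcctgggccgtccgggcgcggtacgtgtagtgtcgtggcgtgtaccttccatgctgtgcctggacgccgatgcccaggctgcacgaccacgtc
Ggps1 (chr13:14063439-14063738, minus strand): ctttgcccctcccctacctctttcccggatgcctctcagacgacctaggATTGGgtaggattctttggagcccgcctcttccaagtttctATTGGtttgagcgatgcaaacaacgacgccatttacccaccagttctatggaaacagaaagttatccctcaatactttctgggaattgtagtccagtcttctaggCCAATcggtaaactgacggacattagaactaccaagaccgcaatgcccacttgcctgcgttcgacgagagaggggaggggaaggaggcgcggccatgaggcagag
Elovl5 (chr9:77917115-77917414, plus strand): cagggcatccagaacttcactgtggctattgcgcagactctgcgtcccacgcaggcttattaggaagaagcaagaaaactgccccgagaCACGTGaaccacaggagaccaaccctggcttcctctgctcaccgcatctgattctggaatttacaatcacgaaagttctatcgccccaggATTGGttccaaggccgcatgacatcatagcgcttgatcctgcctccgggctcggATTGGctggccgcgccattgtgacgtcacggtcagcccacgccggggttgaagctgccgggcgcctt

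The table of start regions held 31 windows for 24 of the 28 measured members, with none for Fdps, Fdft1, Sqle and Abcg1. The sterol regulatory element was searched only as TCACNCCAC, so variants of it were not counted. Of these 31 windows, only that of Hmgcs1 held it in this form (3.23%), against 1.24% of all 32851 windows. It was spelled TCACCCCAC and began at position -137 from the start site. The E-box, which SREBP proteins can also bind, was in 8 of 31 (25.8%), against 7.15% of all windows. The CCAAT box, the site of the SREBP partner NF-Y, was in 19 (61.3%) against 37.4%, and the GC box GGGCGG of Sp1 was likewise in 19 (61.3%) against 35.7%. In 1 window, that of Fasn, CCAAT matches on opposite strands overlapped, and matches of different motifs overlapped in 0. Some members have several windows, which can overlap and repeat a site, as the E-box of Scap does. By gene, 7 of 24 members held the E-box, 19 the CCAAT box, 16 the GC box and 1 the sterol regulatory element in the form searched. The shares by gene over all genes were not computed, and the shares by window are no match for these counts. These matches describe letters in a short window. They show neither binding nor its absence.

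The cells' labelled identity was checked against markers first, since it bears on every value below. A gene was counted as above the threshold when its log2 signal exceeded, on both arrays, the 95th percentile of 1487 olfactory, vomeronasal and taste receptor genes, which stand in for signal without transcript. This threshold was 6.68 for replicate 1 and 6.13 for replicate 2. Of the reference genes themselves, 36 (2.42%) passed on both arrays, and the highest mean signal among them was 10.11. Of 6 measured innate lymphoid and lymphocyte markers 5 passed, among them Ptprc (12.28 and 12.14 on the arrays of replicates 1 and 2), Il7r (8.52 and 9.32) and Id2 (12.23 and 11.93), and Thy1 (5.56 and 5.72) did not. Markers of other cells passed too: 10 of 11 for epithelium, such as Epcam (12.08 and 11.85), Krt8 (15.42 and 15.76) and Krt18 (11.62 and 11.86), and 8 of 9 for macrophages, with Adgre1 at 9.46 and 10.26, C1qa at 10.52 and 11.02 and C1qb at 12.20 and 12.55. All 6 stromal markers passed, with Col1a1 at 13.54 and 15.23, Col1a2 at 10.94 and 12.78 and Col3a1 at 11.06 and 13.10. So did 4 of 6 T cell markers (Cd3d at 8.97 and 8.61, Cd3e at 9.68 and 9.90, Cd3g at 8.97 and 9.25), 4 of 5 B and plasma cell markers (Cd79a at 6.76 and 7.41, Cd79b at 7.10 and 7.13, against 4.86 on both arrays for Pax5) and 3 of 5 endothelial markers (Pecam1 at 7.89 and 8.09, Cdh5 at 7.50 and 8.03, against 5.76 and 5.87 for Kdr). Beside these marker counts, 32.5% of all named genes passed. In such a bulk sample the cell that a transcript came from is unknown, and fewer cells of a type cannot be told apart from less RNA per cell.

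Of the 28 measured members, 18 were above the threshold on both arrays (64.3%), 5 on the array of replicate 2 only and 5 on neither. By the same rule 32.5% of all named genes passed, as did 40.3% of the protein-coding genes that are no receptors of the reference. The median signal of the members was 7.48, beside 5.43 for all named genes and 6.09 for the protein-coding ones. Probes differ in affinity, so these levels do not rank genes by abundance, and whether the members stand apart from other genes was not tested. By role, 5 of 5 regulators, 5 of 6 fatty acid synthesis genes, 7 of 15 sterol synthesis genes and 1 of 2 efflux genes passed.

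**Figure D1:**
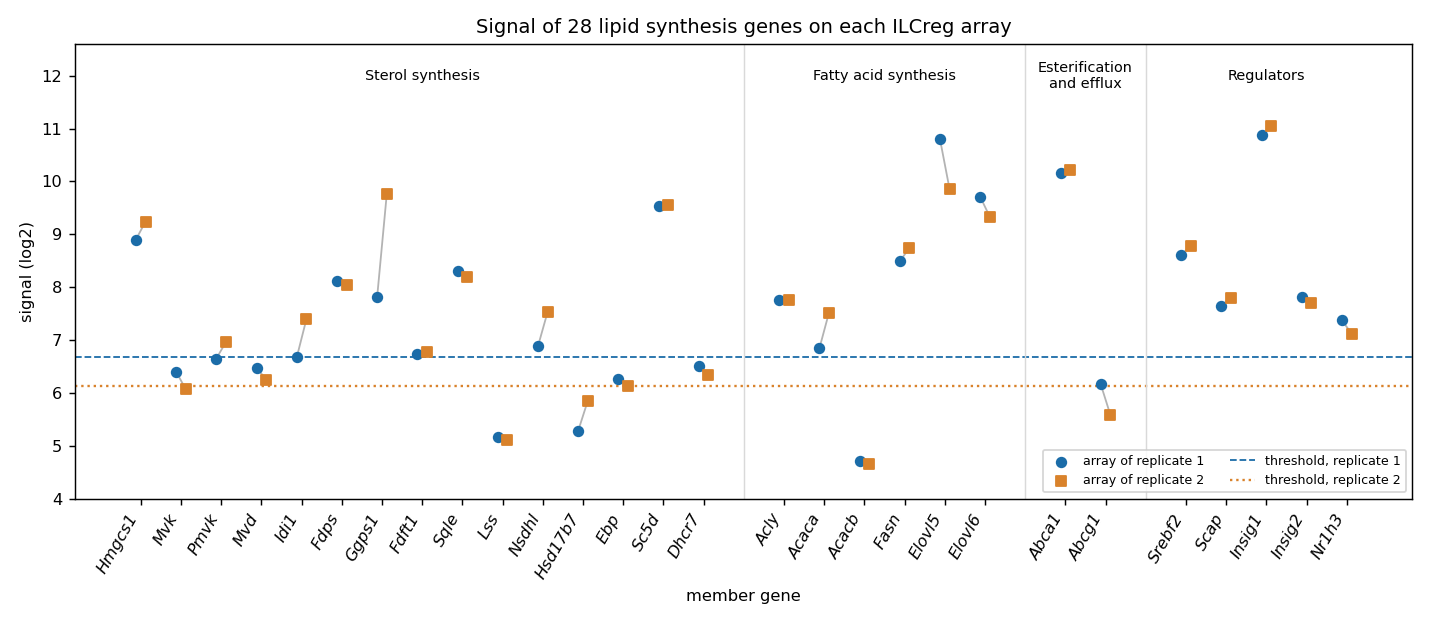
Signal (log2, vertical axis) of the 28 measured members on the array of replicate 1 (circles) and replicate 2 (squares), ordered by pathway step within each group; horizontal lines are the array thresholds of 6.68 and 6.13. The replicate 1 points of the sterol synthesis genes from Mvk to Idi1 lie below the line of replicate 1. The replicate 2 points of Pmvk and Idi1 lie 0.83 and 1.26 above the line of replicate 2. Insig1, Abca1 and Elovl5 lie more than 4 above the threshold on at least 1 array.

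**Figure D2:**
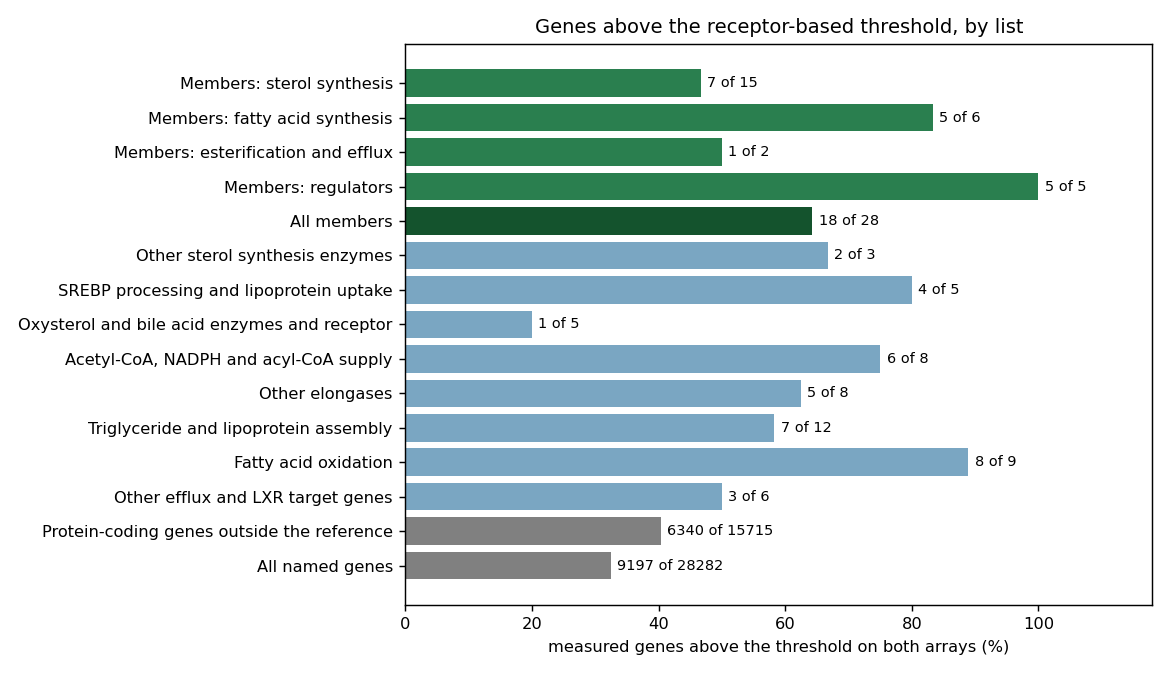
Percentage of measured genes above the threshold on both arrays (horizontal axis) for the 4 member groups, all members, 8 further lipid gene lists, protein-coding genes and all named genes, with counts beside the bars. The share was 100% for 5 regulators, 46.7% for 15 sterol synthesis genes and 32.5% for all named genes.

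The regulators were all above the threshold. Insig1, which retains SCAP in the endoplasmic reticulum and is itself a target of SREBP, had a signal of 10.88 for replicate 1 and 11.05 for replicate 2 (mean 10.97 ± 0.12, SD, n = 2). Its relative Insig2 gave 7.81 and 7.70 (7.75 ± 0.08). The arrays thus placed both INSIG genes above the threshold, Insig1 by 4.20 and 4.92 and Insig2 by 1.13 and 1.57. Srebf2, which encodes the SREBP that chiefly drives sterol synthesis, gave 8.61 and 8.78 (8.70 ± 0.12). Scap, encoding the carrier, gave 7.65 and 7.79 (7.72 ± 0.10). Nr1h3, the gene of LXR alpha, gave 7.37 and 7.12 (7.25 ± 0.17). None of the 5 differed between the arrays by more than 0.22 in either direction after centring. At the 99th percentile of the receptor genes, 7.66 and 7.15, Nr1h3 and Scap no longer passed and the count fell to 3 of 5. The feature of Srebf1, the SREBP gene linked to fatty acid synthesis, also carried the name of a microRNA gene. It read 6.39 and 6.29 and so passed on the array of replicate 2 only.

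Sterol synthesis genes were divided along the pathway. At its head Hmgcs1, which makes HMG-CoA, gave 8.90 and 9.24 (9.07 ± 0.24), above the threshold by 2.23 and 3.11. The genes of the next enzymes, which turn mevalonate into the isoprenoid building blocks, passed on 1 array or neither. The mevalonate kinase gene Mvk gave 6.40 and 6.07 and passed on neither array, at -0.28 and -0.06 relative to the thresholds. The phosphomevalonate kinase gene Pmvk gave 6.65 and 6.96, at -0.03 and 0.83 relative to the thresholds, and the decarboxylase gene Mvd 6.48 and 6.25, at -0.20 and 0.12. Idi1, the isomerase that balances both forms of the isoprenoid unit, gave 6.67 and 7.39, at -0.01 and 1.26 relative to the thresholds. These 3 passed on the array of replicate 2 alone.

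Genes of the branch point and of squalene synthesis passed. Fdps, whose product farnesyl diphosphate feeds sterols and protein prenylation, gave 8.11 and 8.04 (8.08 ± 0.05). Ggps1, which extends it to geranylgeranyl diphosphate for the prenylation of small GTPases, gave 7.81 and 9.76 (8.79 ± 1.38). Both values of Ggps1 were above the threshold, but they lay further apart than those of any other measured member. Fdft1, the squalene synthase gene that commits farnesyl diphosphate to sterols, gave 6.74 and 6.77 (6.76 ± 0.02), only 0.06 above the threshold on the array of replicate 1. Sqle, encoding squalene epoxidase, a rate-limiting enzyme of the pathway, gave 8.31 and 8.19 (8.25 ± 0.08).

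After the ring closes, the genes were again mixed. Lss, the lanosterol synthase gene that closes it, gave 5.16 and 5.10 (5.13 ± 0.04) and stood at -1.52 and -1.03 relative to the thresholds. Nsdhl, a dehydrogenase of the demethylation steps, gave 6.88 and 7.53 (7.20 ± 0.45) and passed. Its partner reductase Hsd17b7 gave 5.28 and 5.85 (5.57 ± 0.40) and passed on neither array. Of the late enzymes, the sterol isomerase gene Ebp gave 6.27 and 6.13 and the final reductase gene Dhcr7 6.50 and 6.33. Relative to the thresholds, Ebp stood at -0.41 and 0.0 and Dhcr7 at -0.18 and 0.21. Both passed on the array of replicate 2 only, Ebp by a margin that rounds to 0.0, although the signal of both was lower there. Sc5d, the sterol desaturase gene that acts between them, gave 9.54 and 9.55 (9.54 ± 0.01), above the threshold by 2.86 and 3.42. A signal below the threshold does not show that a transcript was absent.

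The count of 7 sterol synthesis genes rested on values close to the threshold. Of all measured members 9 lay within 0.25 of it on at least 1 array: Mvk, Pmvk, Mvd, Idi1, Fdft1, Nsdhl, Ebp, Dhcr7 and the fatty acid synthesis gene Acaca. The thresholds differed by 0.55 between the arrays and the medians of all named genes by 0.11. All 5 members that passed on 1 array did so on that of replicate 2, and 3 of them (Mvd, Ebp and Dhcr7) had the lower signal there. Of all 28282 named genes, 9197 passed on both arrays, 1917 on the array of replicate 2 only and 195 on that of replicate 1 only. On the array of replicate 2 alone 12 of 15 sterol synthesis genes passed, and 7 did on the other.

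Of the enzymes of this pathway outside the set, 3 are reported here. Cyp51, which demethylates lanosterol, gave 7.39 and 7.18 and Lbr, a nuclear envelope protein that is also a sterol reductase, 7.54 and 7.58. Both passed. Idi2, the relative of Idi1 known from muscle, gave 4.51 and 4.28 and did not.

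In fatty acid synthesis, 5 of 6 measured genes passed, from the supply of acetyl-CoA to chain elongation. The desaturase genes of the group, Scd1, Scd2, Fads1 and Fads2, were not analysed. Acly, which makes cytosolic acetyl-CoA from citrate, gave 7.75 on both arrays. Acaca, the acetyl-CoA carboxylase that makes malonyl-CoA for synthesis, gave 6.84 and 7.52 (7.18 ± 0.48), 0.16 above the threshold on the array of replicate 1. Acacb, the mitochondrial carboxylase whose malonyl-CoA restrains fatty acid oxidation, gave 4.71 and 4.66 (4.68 ± 0.04), at -1.97 and -1.47 relative to the thresholds. Of the carboxylase genes, the cytosolic one was the one above the threshold. At the 99th percentile of the receptor genes Acaca no longer passed, and the count of the group fell to 4 of 6. Fasn, the fatty acid synthase gene, gave 8.49 and 8.74 (8.62 ± 0.18). The elongase gene Elovl6, which lengthens saturated and monounsaturated chains, gave 9.71 and 9.33 (9.52 ± 0.27). Elovl5, which lengthens polyunsaturated chains, gave 10.80 and 9.85 (10.33 ± 0.68) and was higher on the array of replicate 1.

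Of the efflux genes, Abca1, which loads cholesterol onto lipid-poor apolipoprotein A-I, gave 10.16 and 10.21 (10.19 ± 0.03), above the threshold by 3.48 and 4.08. Abcg1, which exports cholesterol to more mature lipoprotein particles, gave 6.16 and 5.58 (5.87 ± 0.41) and stood at -0.52 and -0.55 relative to it. Both are LXR targets. Abca1 and Nr1h3 are also expressed in macrophages, whose markers passed in 8 of 9 cases, and the part of macrophage RNA in their signal was not tested.

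Most members differed by under 0.5 between the arrays. After subtraction of the median difference of all named genes (-0.05, replicate 2 minus replicate 1), the median difference of the 28 members was 0.06, with 15 higher for replicate 2 and 13 higher for replicate 1. The median size of the difference was 0.20, beside 0.21 for all named genes. In 21 of 28 members it was under 0.5. The other 7 were Ggps1 (2.0), Idi1 (0.76), Acaca (0.73), Nsdhl (0.69) and Hsd17b7 (0.61), higher on the array of replicate 2, and Elovl5 (-0.91) and Abcg1 (-0.53), higher on the other. Each difference sets 1 array against 1 and has no replicate check.

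Among the 18 members above the threshold, only Ggps1 exceeded 2-fold toward replicate 2 (4.0-fold), and 0 exceeded it toward replicate 1. Of all named genes above the threshold, 2.17% did so toward replicate 2 and 1.99% toward replicate 1. Of the protein-coding ones outside the reference, 2.27% and 0.899% did. A difference at least as large as that of Ggps1 in its direction was seen for 11 of 9197 named genes above the threshold and for 5 of 6340 protein-coding ones. Elovl5, at 1.88-fold, was the member nearest the limit on the other side, and it exceeded 2-fold when both arrays were quantile normalized. A difference at least as large as its own in that direction was seen for 239 of 9197 genes (2.60%) and for 81 of 6340 protein-coding ones (1.28%).

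Marker lists differed between the arrays as well. Of the 6 stromal markers, Dpt sat at the ceiling of each array and the difference of Dcn equalled that between the ceilings, so neither difference is a measurement. The other 4 were higher on the array of replicate 2 after centring, with summed log2 signals of 50.39 for replicate 1 and 55.96 for replicate 2. The collagen genes Col1a1, Col1a2 and Col3a1 were higher by 1.74, 1.89 and 2.08, and Lum by 0.05. The 11 epithelial markers went both ways, with sums of 127.85 and 125.62. The 7 that were higher on the array of replicate 1 were Epcam (-0.18), Vil1 (-0.38), Fabp1 (-1.09), Fabp2 (-0.33), Alpi (-0.22), Agr2 (-0.37) and Lgr5 (-0.48). The 4 that were higher on that of replicate 2 were Krt8 (0.39), Krt18 (0.29), Krt19 (0.45) and Cdh1 (0.21). None of these markers was at 0. Thy1, Dcn, Dpt, Lum and the epithelial markers other than Epcam, Krt8 and Krt18 are named outside the rule for examples, after their values were seen. Whether stromal RNA had a part in the difference of Ggps1, or epithelial RNA in that of Elovl5, was not tested.

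**Figure D3:**
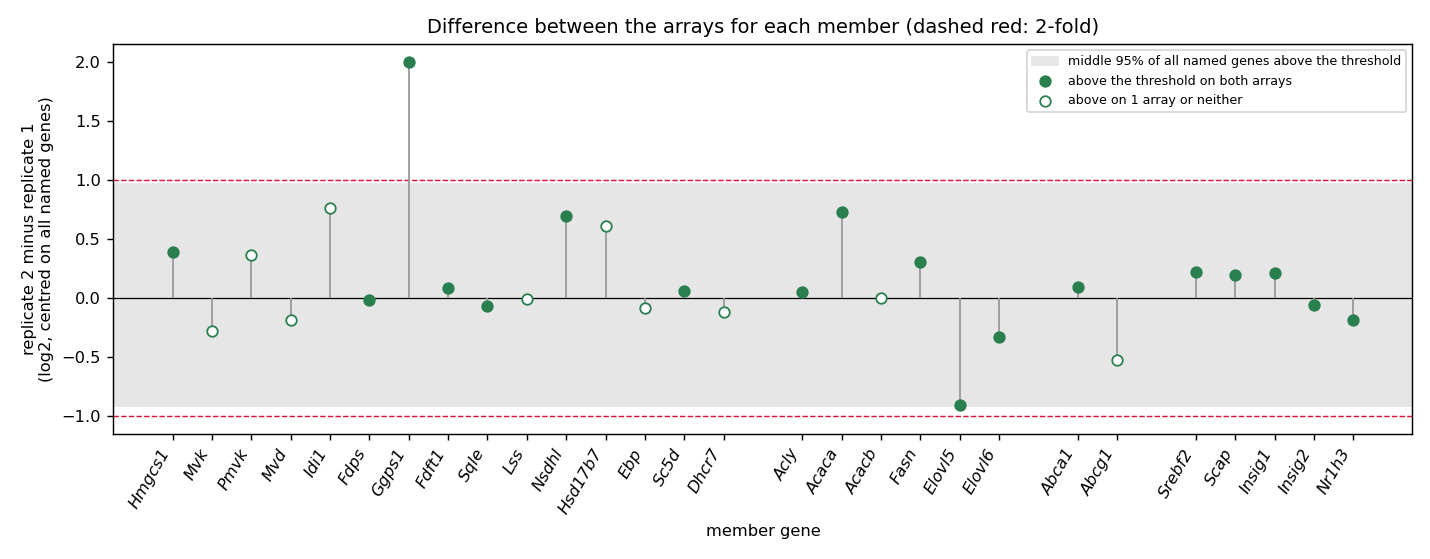
Difference of replicate 2 minus replicate 1 (log2, centred on all named genes; vertical axis) for each measured member, with the middle 95% of all named genes above the threshold, from -0.92 to 0.96, in grey and the 2-fold limits dashed. Filled points passed the threshold on both arrays; Ggps1 at 2.0 is the only point outside the grey band, and Elovl5 at -0.91 lies at its lower edge; the same band for protein-coding genes alone runs from -0.72 to 0.97, and Elovl5 lies outside it.

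Genes that feed or surround these pathways were taken from 8 lists, in which 36 of 56 measured genes passed (64.3%). The share was also 64.3% among the 28 members, beside 32.5% of all named genes and 40.3% of the protein-coding ones outside the reference. Whether these shares differ was not tested. In SREBP processing and lipoprotein uptake 4 of 5 passed. Lrp1, a broad lipoprotein receptor, gave 13.34 and 13.84, Mylip, the LXR-induced ligase that degrades lipoprotein receptors, 9.21 and 8.98, and Mbtps1, the Golgi protease that first cuts SREBP, 8.05 and 8.18. The lipoprotein receptor gene Scarb1 (6.47 and 6.52) passed on the array of replicate 2 only. Mbtps1 is named outside the rule for examples, after its values were seen.

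In the supply of acetyl-CoA, NADPH and acyl-CoA 6 of 8 passed. Mlx, a partner of the glucose-sensing factor ChREBP, gave 10.48 and 10.36, and Acsl4, which activates polyunsaturated fatty acids, 9.85 and 10.44. Thrsp, a lipogenic gene of liver and fat, gave 4.84 and 4.33 and did not pass. Of 8 other genes of chain elongation 5 passed. Tecr and Hacd2, which complete the elongation cycle, gave 12.39 and 12.54, and 10.32 and 10.87. Hsd17b12, the ketoacyl reductase of the same cycle, gave 9.72 and 10.67 (centred difference 1.00). The elongase gene Elovl2 gave 4.34 and 4.14 and did not pass.

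Oxysterol genes were mostly near or below the threshold, and 1 of 5 passed. Cyp27a1, the mitochondrial sterol hydroxylase gene, gave 7.30 and 7.51. Cyp7b1, which encodes an oxysterol hydroxylase, gave 6.33 and 6.94, passing on 1 array, and the brain enzyme gene Cyp46a1 4.15 and 4.13. Gpr183, the oxysterol receptor that guides lymphoid cells, gave 4.04 and 4.29 and passed on neither. It is named outside the rule for examples, after its values were seen. Among 6 other efflux and LXR target genes 3 passed, including Apoe (11.85 and 11.74), the lipoprotein ligand made by macrophages, and the phospholipid transfer protein gene Pltp (10.50 and 11.46, centred difference 1.01), while Apoc1 (4.39 and 4.33) did not.

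**Figure D4:**
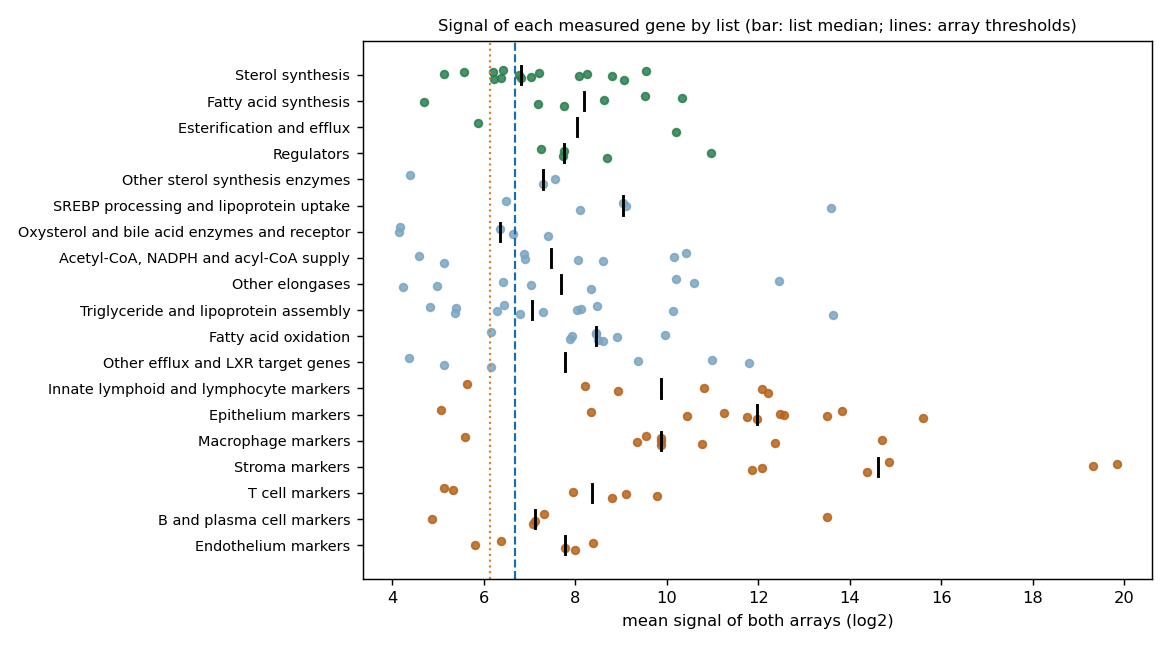
Mean log2 signal of both arrays (horizontal axis) for every measured gene of the 4 member groups (green), the 8 further lipid lists (blue) and the 7 marker lists (brown); black bars are list medians and the dashed and dotted lines the thresholds of 6.68 and 6.13. The median of the sterol synthesis members, 6.80, lies close to the thresholds, and those of the epithelial and stromal markers, 11.97 and 14.62, lie far to the right.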

How the data were processed

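RNA of sorted cells was amplified and hybridised to Affymetrix whole-transcript arrays, per the labels' protocols. The authors' deposited values, 1 per feature and array (61344 features), were read as log2 signal from their range of 2.10 to 19.86. Values exceeded 16, the log2 of the highest 16-bit reading, for 688 and 673 features on the arrays of replicates 1 and 2. The range alone therefore does not settle the scale. Folds assume base 2, which no source states. MAS5 is named in the submitters' processing notes, with no role. How the values were normalized is not given in the sources used here. Of the features 28573 carried 1 distinct symbol, 2014 several and 30757 none. Repeats of the same symbol were counted once. For 212 genes with several features that of highest mean was used; no measured member was among them. The 2-array design limits precision. Counts, medians and differences were computed with Python 3.11.15, numpy 2.4.6 and pandas 2.3.3 and checked on simulated data. Start regions are RefSeq's. Planned protein comparisons were not run. Members and lists were chosen with earlier results of these data known. Named were all members, the other sterol enzymes, the first 3 measured markers of each cell type, and of each further list the 2 genes of highest signal, the lowest, and, of those above the threshold, the most different between arrays. Alternatives changed the reference, the feature rule, symbols, centring, normalization and the arrays used.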

Additional observations from a re-analysis of the deposited data

Results flagged for a closer look

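The feature of Msmo1, the methylsterol oxidase gene of sterol synthesis, entered no count because it carried 2 symbols, Msmo1 and Sc4mol, and it was looked at again as signal in data left unused. Both symbols belong to 1 Entrez gene. It gave 8.03 for replicate 1 and 7.20 for replicate 2, a mean signal of 7.61 ± 0.59 (SD, n = 2), above the threshold on both arrays.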

How the results depend on the processing

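Of 71 results recomputed under the alternatives, 62 stayed within the replicate spread or within 1.5 times of a count. Part of these could hardly have moved, so the count of 62 is no measure of robustness. No measured member had several features, so the feature rule could not change a member's own signal. For median signals the spread came from the same single-array medians, so leaving out 1 array was a weak check. For sterol synthesis, 13 genes passed at the 90th percentile of the reference and 11 with keratin-associated protein and Rhox genes as the reference, and leaving out 1 array gave 7 to 12. For regulators, 3 passed at the 99th percentile. The median signal of all members was 7.61 with updated symbols, which add Msmo1, and 7.51 to 7.61 on single arrays; that of the regulators was 7.79 to 7.81 on single arrays. Under quantile normalization 2 members, Ggps1 and Elovl5, were over 2-fold apart; the cause was not tested. The total of members above the threshold was 13 at the 99th percentile and 24 at the 90th. The share of all named genes that passed was not computed for these other thresholds, so these counts have no background beside them. A threshold from receptor genes limits what can be said of signals near it. No paired analysis was possible because there is 1 group.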

Other observations

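Genes of fatty acid oxidation and of lipid packaging were also measured. In fatty acid oxidation 8 of 9 genes were above the threshold on both arrays. Hadha and Hadhb, the subunits of the mitochondrial trifunctional protein, gave 9.99 and 9.90, and 8.08 and 8.83, on the arrays of replicates 1 and 2. The long-chain dehydrogenase gene Acadl gave 8.67 and 9.13. The peroxisomal gene Ehhadh (5.77 and 6.55) passed on the array of replicate 2 only.

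In triglyceride and lipoprotein assembly 7 of 12 genes passed (58.3%), beside the same 32.5% and 40.3%. Dgat1, which makes the final step of triglyceride synthesis, gave 13.57 and 13.71, and Mttp, which loads lipid onto apolipoprotein B, 10.12 and 10.14. Dgat2, its relative in function, gave 7.26 and 6.32, with a centred difference of -0.90. The apolipoprotein gene Apoc3 gave 4.93 and 4.70 and did not pass. Mttp is known from absorptive epithelium, whose markers passed in 10 of 11 cases, and the part of epithelial RNA in its signal was not tested.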
